A study of Mus musculus with 12 samples.

Results

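B16 cells, an established mouse melanoma line, were compared on Day 16 and on Day 0 of a culture cycle, both of which the submitters labelled depigmented. The 2 arrays labelled Day 16 and the 2 arrays labelled Day 0 were chosen by those labels, and they are 4 of the 12 Illumina bead arrays of the series. The Day 16 cells had been seeded at 100 cells per cm2, replated on day 12 at 10000 cells per cm2 and harvested at day 16. How the Day 0 cells were seeded is not described in the protocol, and the design text names day 0 of the first cycle as the base of the submitters' own analysis. All cells were grown in DMEM with 10% fetal calf serum, received no other agent according to the labels, and gave total RNA purified by Trizol and column. Each day had 1 array of set 1 and 1 of set 2, which the design text calls consecutive cycles of the same line. A separate density label gave 100 cells per cm2 for both Day 16 arrays, although the protocol replated them at 10000, and it gave 10000 for set 1 and 100 for set 2 of Day 0. Time in culture, replating and seeding therefore cannot be told apart between the days.

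The design text speaks of cycles but not of independent cultures, so the p-values rest on how far these arrays differ from each other, a spread that could be technical. Of 45281 probes, 18508 to 19780 were detected per array over the series, and 11470 genes were tested. Values below are log2 normalized signals per array, and differences are Day 16 minus Day 0 on that log2 scale with their standard error (SE, n = 2 arrays per day). The SE rests on a spread that limma pools over the 12 arrays of the 6 days and moderates across genes. It is not the spread of the 4 arrays alone. A gene was called at an adjusted p under 0.05 from limma with Benjamini-Hochberg adjustment over all 11470 genes. All 8 melanocyte markers examined (Tyr, Tyrp1, Dct, Pmel, Mlana, Mitf, Sox10 and Slc45a2) were detected on all 4 arrays. Of 24 markers of fibroblasts, keratinocytes, leukocytes and endothelium, 22 had a named probe and 15 of these, among them Ptprc, Cd3e, Dcn, Col3a1, Krt14 and Pecam1, were detected on none of the 4 arrays. The summed signal of the 7 markers that were measured was 309.7 and 308.1 on Day 16, against 379.4 and 389.3 on Day 0. Summed signals, here and below, are on the linear scale. They include, for each marker, the offset of 16 that was added at background correction, so weak probes add to them. In bulk RNA, fewer cells of a type and less RNA per cell cannot be told apart.

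Melanocytes build melanin in melanosomes, organelles related to lysosomes, where tyrosinase and its relatives oxidize tyrosine under the control of the transcription factor MITF. Cells that receive serum or growth factors transcribe a set of immediate early genes (Fos, Jun and Egr members and others) through MAP kinase signalling, from RNAs that are short-lived. Id proteins, which bind basic helix-loop-helix factors and keep them off DNA, are classical targets of BMP signalling and of serum.

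Tyr, Gbp3, Fos and Mcm5 stand for the 4 gene groups described most fully below (pigment, interferon, immediate early and DNA replication). Their promoter stretches are shown because each holds a short motif known from such genes, in capitals, and lies upstream of the RefSeq start (GRCm38.p6). Each stretch is 120 bases, written 5′ to 3′ on the strand of the gene.
Tyr, chr7:87493513-87493632, minus strand, TCATGTG: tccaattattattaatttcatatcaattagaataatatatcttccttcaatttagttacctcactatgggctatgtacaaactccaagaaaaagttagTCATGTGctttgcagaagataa
Gbp3, chr3:142559924-142560043, plus strand, GAAANNGAA as its reverse complement at 2 overlapping places: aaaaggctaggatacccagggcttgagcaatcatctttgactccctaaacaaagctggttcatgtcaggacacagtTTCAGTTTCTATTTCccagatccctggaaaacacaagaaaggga
Fos, chr12:85473764-85473883, plus strand, TGACGT: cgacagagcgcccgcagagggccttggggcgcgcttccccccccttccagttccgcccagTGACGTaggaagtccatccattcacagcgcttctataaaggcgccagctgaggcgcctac
Mcm5, chr8:75109300-75109419, plus strand, TTTCGCGC followed by an overlapping TTTGGCGC on the other strand: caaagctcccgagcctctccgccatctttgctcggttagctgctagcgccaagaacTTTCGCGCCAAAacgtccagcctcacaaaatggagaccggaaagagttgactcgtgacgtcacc

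Within 250 bases before a start, on either strand, TCATGTG (the M-box core known from MITF targets) was found in 6 of 12 pigment genes that had a window, against 2.38% of 9336 tested genes with one. GAAANNGAA, the core of the interferon-stimulated response element, was found in 18 of 42 interferon genes, against 7.36% of the tested genes. TGACGT, the core of the cyclic AMP response element, was found in 5 of 18 immediate early genes, against 11.4%. TTTGGCGC or TTTCGCGC, forms of the E2F site, were found in 5 of 30 DNA replication genes, against 1.49%. These counts describe letters in a window and take no account of how a gene moved. Among the pigment genes that held TCATGTG, Tyr, Tyrp1, Dct and Mc1r were called higher on Day 16, while Slc24a5 and Trpm1 were not called. Among the pigment genes without it, Mitf and Met were called higher, Atp7a and Tfap2a lower, and Oca2 and Kit were not called. The motif was thus in 4 of the 8 called pigment genes and in 6 of all 12.

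Day 16 cells differed from Day 0 cells in 5455 of 11470 genes (47.6%), of which 2400 were higher (20.9%) and 3055 lower (26.6%) on Day 16. The counts of list members called below are to be read beside these shares of all genes. By at least 2-fold, 391 genes (3.41%) were higher and 369 (3.22%) lower. In 8396 genes (73.2%) the 2 arrays of Day 16 both lay on the same side of the 2 arrays of Day 0, so arrays that do not overlap are common and say little about a gene by themselves. The median difference over all genes was -0.05, and the SD of the difference across genes was 0.542. The SD of the difference between the 2 arrays of Day 16 was 0.2, and 0.189 between those of Day 0. The first is a difference of means of 2 arrays and the others are differences of single arrays, so the values are not like for like. Between sets, 1 gene differed by at least 1 log2 unit on Day 16 (Suox) and 2 on Day 0 (Tfpi and Oas1b). The 2 Day 0 arrays carried opposite density labels, and with 1 array per label an effect of density on Day 0 was not tested. Of the 5455 genes called, 5452 had the same sign in both sets. The plot of difference against mean signal shows that the largest differences went down: Fosb, Id1, Id2, Fos and Egr1 fell by more than 4 log2 units, while no gene rose by that much. The size of such differences depended on the background correction: without it Fosb differed by -5.02, Id1 by -3.19, Klf4 by -2.31, Dusp5 by -1.69, Tyr by 1.81 and Ddx5 by 1.49, each still called.

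**Figure D1:**
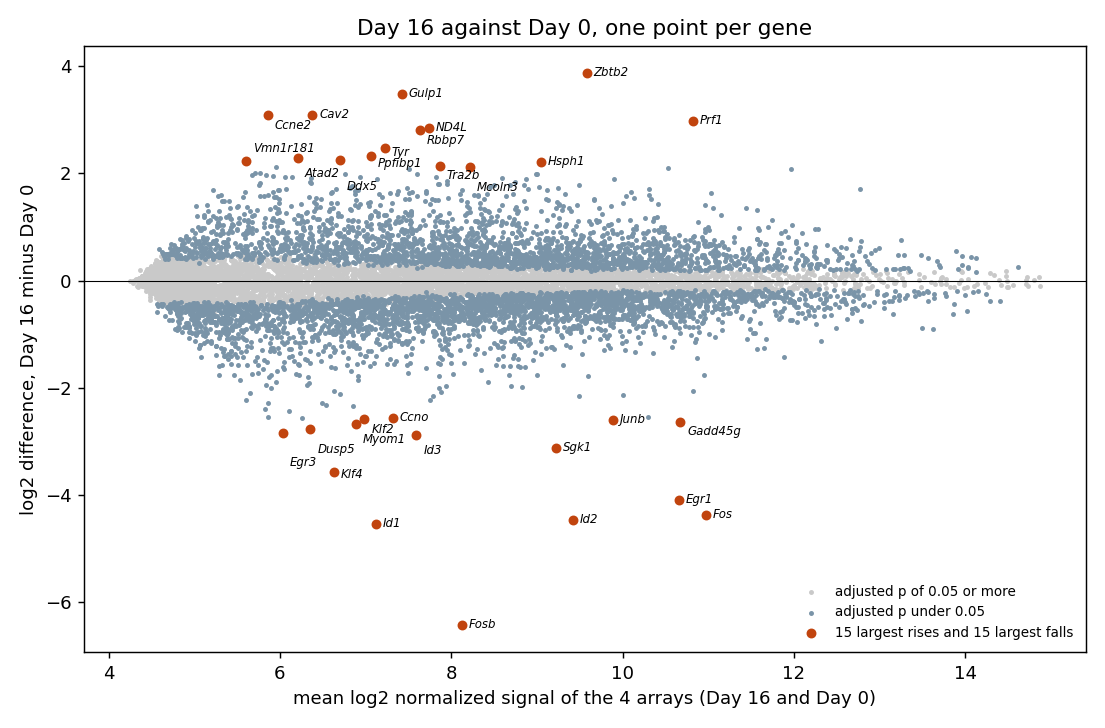
Each point is a gene, with its mean log2 normalized signal over the 4 arrays on the x axis and its log2 difference, Day 16 minus Day 0, on the y axis. Grey points did not pass the test, slate points did, and orange points are the 15 largest rises and 15 largest falls, among which Fosb (-6.41) and Zbtb2 (3.86) are the extremes.

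Immediate early genes were lower on Day 16. Of 23 measured members 20 were lower on Day 16 and 0 were higher, with a median of -1.59 (-1.56 with undetected genes at their bounds), and Klf10 (0.16), Nr4a3 (-0.06) and Phlda1 (-0.17) did not pass the test. Fosb, an AP-1 subunit, had signals of 4.91 and 4.92 on Day 16, against 11.28 and 11.38 on Day 0 (-6.41 ± 0.13, adjusted p = 1.88e-19), the largest difference of any gene. Fos, its better known relative, had 8.74 and 8.84 on Day 16, against 13.21 and 13.12 on Day 0 (-4.37 ± 0.09, adjusted p = 1.88e-19). In both genes the arrays of a day lay close together and the days were far apart. All 7 measured AP-1 genes fell, the others being Junb (-2.60), Atf3 (-1.73), Jund (-1.56), Fosl2 (-1.37) and Jun (-1.02).

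Zinc finger factors of the EGR and KLF families and the NR4A nuclear receptors followed. Egr1, which binds GC-rich promoters, had 8.62 and 8.60 on Day 16, against 12.69 and 12.71 on Day 0 (-4.09 ± 0.08, adjusted p = 1.82e-19). Klf4 had 4.96 and 4.73 on Day 16, where 1 array detected it, against 8.34 and 8.49 on Day 0 (-3.57 ± 0.17, adjusted p = 1.17e-12), and 2 further Klf4 probes gave -2.33 and -3.50. Egr3 was detected on no Day 16 array and was at least 6.14-fold lower there (adjusted p = 8.84e-12, measured means 4.61 on Day 16 and 7.46 on Day 0), but differed by -1.64 log2 units without background correction, less than that bound. A second Egr3 probe, detected on 1 array of each day, gave 0.02 (adjusted p = 0.926), so the fall rests on 1 probe. Klf2 (-2.58), Egr2 (-2.44, detected on 1 Day 16 array), Nr4a2 (-2.32) and Klf6 (-0.59) also fell. Nr4a1, not detected on Day 16, was at least 2.37-fold lower (adjusted p = 6.13e-07, measured means 4.50 on Day 16 and 6.08 on Day 0).

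Other genes of this early response fell as well. Zfp36, which binds AU-rich RNA and promotes its decay, had 7.73 and 7.94 on Day 16, against 9.85 and 9.80 on Day 0 (-1.99 ± 0.11, adjusted p = 8.24e-12). Srf, the factor that drives many immediate early promoters, was 1.12 log2 units lower (-1.12 ± 0.08, adjusted p = 8.47e-10), though a second Srf probe gave -0.19 and was not called. Ier3 fell by 0.65. Ier2 and the antiproliferative gene Btg2 were undetected on Day 16, and there they were at least 2.34-fold (adjusted p = 1.12e-06, measured means 4.65 on Day 16 and 6.07 on Day 0) and at least 1.34-fold lower (adjusted p = 0.000751, measured means 4.36 on Day 16 and 5.26 on Day 0). The serum- and glucocorticoid-regulated kinase Sgk1, on no list but among the 15 largest falls, had 7.83 and 7.51 on Day 16, against 10.81 and 10.76 on Day 0 (-3.11 ± 0.12, adjusted p = 2.96e-14). Gadd45g, a growth arrest gene, fell by 2.63, and its second probe by 3.07.

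Phosphatases that switch off MAP kinases moved the same way for the most part. Dusp5 had 5.11 and 4.84 on Day 16, where 1 array detected it, against 7.78 and 7.70 on Day 0 (-2.77 ± 0.16, adjusted p = 2.56e-11). Dusp1 (-2.06 ± 0.08) and Dusp10 (-2.05 ± 0.14) were lower too. Dusp6 (-0.70 ± 0.07) and Dusp2 (-0.38 ± 0.11) were called lower on their brightest probes but not as the mean of their probes (-0.16, adjusted p = 0.0864, and -0.04, adjusted p = 0.794). Other probes gave -0.50 and 0.73 for Dusp6 and 0.30, not called, for Dusp2, which was also not called without Day 0 replicate 1. Dusp4 was higher (0.60 ± 0.08, adjusted p = 3.63e-06), with 0.42 on a second probe and 2 others not called. None of the 4 measured Sprouty, Spred and Etv genes, further feedback genes of this pathway, passed the test (Spred1 -0.22, Spry4 -0.21, Spred2 0.04, and Etv5, undetected on all 4 arrays).

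The Id genes, which encode dominant inhibitors of helix-loop-helix factors, were lower on Day 16 in all 3 measured cases. Id1 had 4.66 and 5.04 on Day 16, of which 1 array detected it, against 9.39 and 9.39 on Day 0 (-4.54 ± 0.14, adjusted p = 1.00e-15). Id2 had 7.29 and 7.10 on Day 16, against 11.74 and 11.55 on Day 0 (-4.45 ± 0.08, adjusted p = 1.38e-19). Other Id2 probes gave -1.61 and -1.12, each also called, so the probes shared a direction and differed in size, with -2.39 as their mean. Id3 fell by 2.88 (± 0.16). The measured genes of receptors and SMAD proteins of the BMP pathway, which lies upstream of Id genes, moved little on their brightest probes. Bmpr1a was 0.36 higher (0.99 on a second probe, and not called without Day 0 replicate 1 or with median centring). Bmpr2 was 0.24 lower (-0.24 ± 0.08, adjusted p = 0.0198, and not called under 6 of the 15 alternative settings). Smad1 (-0.16), Smad5 (0.09) and Smad6 (-0.03) were not called, while Smad9 was undetected on all 4 arrays. Id4 and the pathway genes Smad7, Bambi and Bmp4 did not pass the filter, and the activity of the pathway was not tested.

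**Figure D2:**
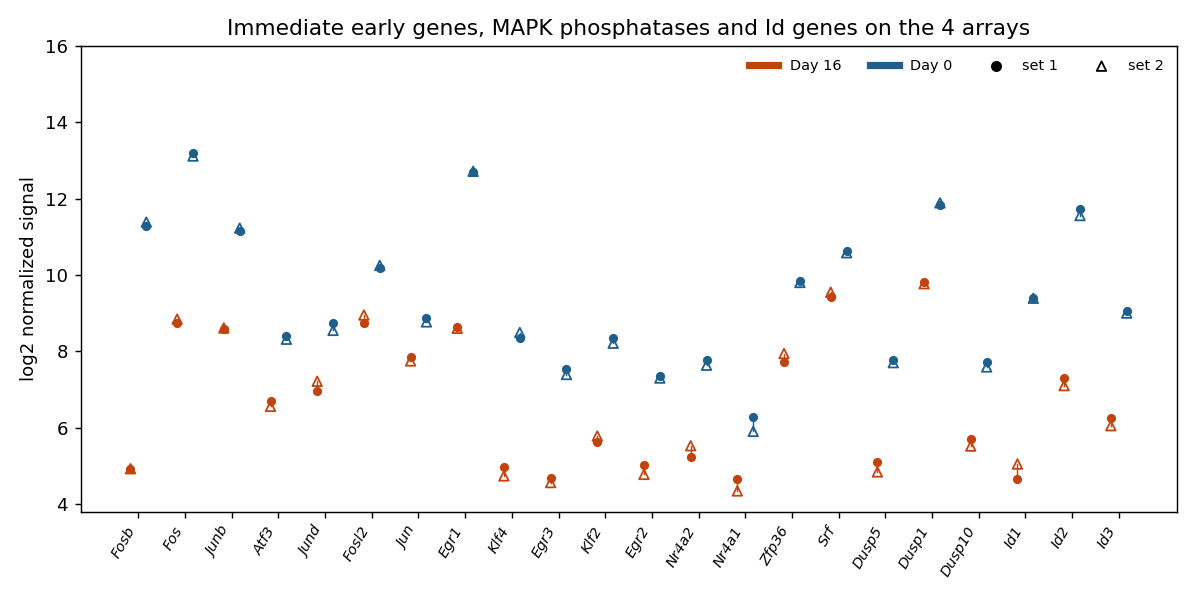
The y axis is the log2 normalized signal, and each gene on the x axis has its Day 16 arrays (orange) left of its Day 0 arrays (blue), with set 1 as filled circles and set 2 as open triangles. The genes drawn were picked from those called at least 2-fold lower on Day 16, so their direction was set by that choice. Members that fell less, were not called or rose, such as Dusp4 (0.60), are not drawn. Differences run from -1.02 for Jun to -6.41 for Fosb.

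Targets of the YAP coactivator and genes of matrix and adhesion leaned the same way. Of 26 measured members 15 were lower on Day 16 and 4 higher, with a median of -0.43. Ccn1, a secreted matricellular protein and YAP target, had 9.01 and 9.04 on Day 16, against 11.54 and 11.59 on Day 0 (-2.55 ± 0.08, adjusted p = 1.91e-15). Ccn2 fell by 1.60, Itga6, an integrin chain for laminin, by 1.24, and the basement membrane collagen Col4a1 by 1.24. Timp3, an inhibitor of metalloproteinases, fell by 1.25, or by 0.61 when its detected probes were averaged. Among the 4 higher genes was Cav2, caveolin 2, which was undetected on Day 0 and at least 8.20-fold higher on Day 16 (adjusted p = 8.32e-14, measured means 7.92 on Day 16 and 4.84 on Day 0). Without background correction Cav2 differed by 1.90 log2 units, which is less than that bound. Cav1, its partner in caveolae, was 0.60 lower on Day 16. Of the fibroblast markers, Pdgfrb (-0.89) and Pdgfra (-0.41, not called under 5 of 14 settings, among them leaving out Day 0 replicate 2 or Day 16 replicate 2) were lower and Col1a1 (-0.02) did not pass the test, the other 4 fibroblast markers were undetected, and the summed signal of the 3 was 177.3 and 167.2 on Day 16, against 230.2 and 242.2 on Day 0. Their part in the result was not tested.

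Pigment genes were higher on Day 16 than on Day 0, although both days carry the label depigmented. Of 18 measured members 11 were higher and 2 lower, with a median of 0.42 (1 lower without Day 0 replicate 2). Tyr, which encodes tyrosinase, had 8.46 and 8.47 on Day 16, against 5.86 and 6.13 on Day 0 (2.47 ± 0.11, adjusted p = 3.37e-13). Gpr143, a receptor in the melanosome membrane, had 7.96 and 7.97 on Day 16, against 6.35 and 6.34 on Day 0 (1.62 ± 0.11, adjusted p = 2.26e-10). Mc1r, the receptor for melanocyte-stimulating hormone, had 9.42 on both Day 16 arrays, against 7.96 and 7.74 on Day 0 (1.57 ± 0.12, adjusted p = 7.10e-10). In these 3 genes neither Day 16 array came near a Day 0 array.

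Structural proteins and transporters of the melanosome divided. Pmel, which forms the fibrils on which melanin is laid down, had 12.08 and 12.15 on Day 16, against 10.75 and 10.79 on Day 0 (1.35 ± 0.07, adjusted p = 5.66e-12). Mlana rose by 1.31 (± 0.08) and the transporter Slc45a2 by 1.78 (± 0.07). The copper pump Atp7a, which supplies tyrosinase, fell by 0.37 (not called without Day 0 replicate 2), and the channel Trpm1 (-0.08 ± 0.09, adjusted p = 0.471) did not pass the test. Oca2 was detected on none of the 4 arrays and Slc24a5 on 1 array of Day 16 alone, so neither gives a difference.

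The melanin enzymes Tyrp1 and Dct differed little on their brightest probe, by 0.22 ± 0.08 (adjusted p = 0.034) and 0.42 ± 0.08 (adjusted p = 0.000138). Other probes gave 1.91 and 2.60 for Tyrp1 and 1.11 for Dct, a second Pmel probe gave 2.77, and 3 further Slc45a2 probes gave 3.70, 3.53 and 1.55. The rule of the highest mean signal thus chose the smallest difference for Tyrp1, Dct and Pmel. Among the factors that control these genes, Sox10 was higher by 0.52 (± 0.07) and Mitf by 0.41 (± 0.12, adjusted p = 0.00724), while a second Mitf probe gave 0.01 (adjusted p = 0.967). Tfap2a was lower by 0.45 (-0.67 on a second probe, with 3 others not called) and Pax3 (-0.15) was not called. Met, the receptor for hepatocyte growth factor, was undetected on Day 0 and at least 3.69-fold higher on Day 16 (adjusted p = 3.83e-10, measured means 6.77 on Day 16 and 4.76 on Day 0), against 1.06 log2 units without background correction. The stem cell factor receptor Kit (-0.28, adjusted p = 0.0901) did not pass the test.

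**Figure D3:**
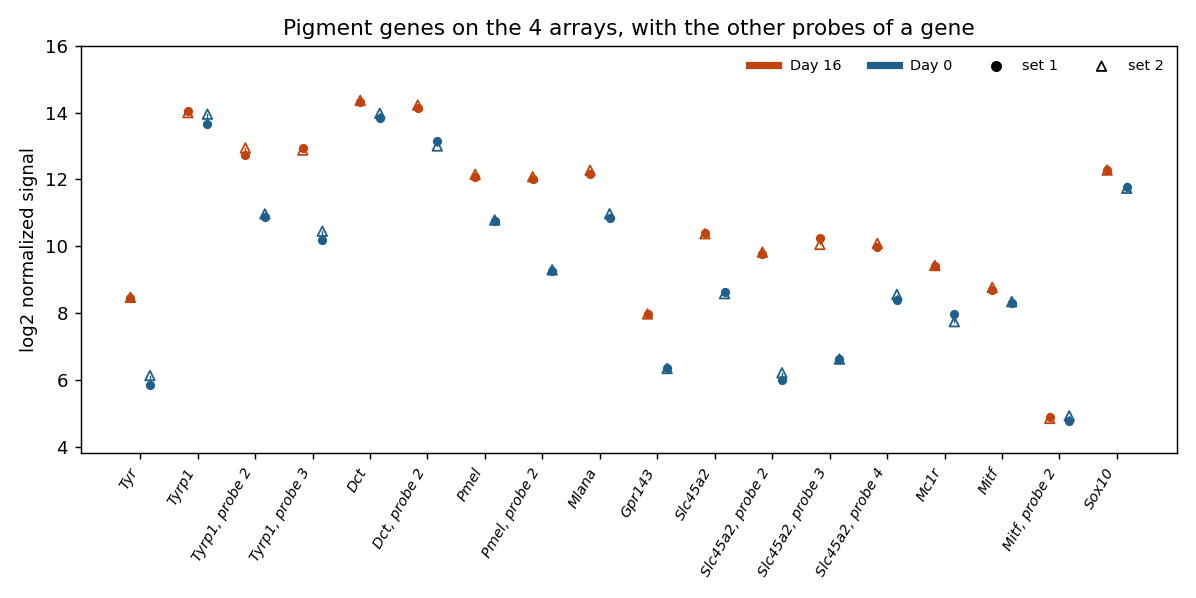
The y axis is the log2 normalized signal, with Day 16 arrays (orange) left of Day 0 arrays (blue) for each probe, set 1 filled and set 2 open. Additional probes of a gene stand beside its brightest 1, and the days lie closest for the brightest Tyrp1 probe (0.22) and for the second Mitf probe (0.01).

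Of 25 measured genes that move and build melanosomes 15 were higher and 4 lower on Day 16, with a median of 0.29. All 7 measured Rab GTPases, motors and their adaptors were higher on Day 16, led by Mlph, the adaptor that links Rab27a to myosin Va, with 6.70 and 6.57 on Day 16, against 5.13 and 5.56 on Day 0 (1.28 ± 0.16, adjusted p = 1.14e-06; 0.67 as the mean of its probes). Mreg rose by 1.11, Rab27a by 0.68 and Myo5a by 0.46, or by 1.17 on a second probe. Of the 13 genes of the BLOC and AP-3 complexes, which sort cargo to lysosome-related organelles, 4 were higher (Bloc1s3 the most, 0.61) and 4 lower (Hps1 the most, -0.74). Of all genes, 20.9% were higher and 26.6% lower. Of 5 other proteins of the organelle 4 were higher, Vps33a (0.39), Cd63 (0.32), Gpnmb (0.29) and Lyst (0.47, not called under 5 of 14 settings). Tpcn2 (-0.05) was not called. Other probes gave 0.82 and 0.56 for Cd63 and 0.80, 2.23 and 0.26 for Gpnmb, each also called. The whole list had 9 higher without Day 16 replicate 1, 5 higher with median centring and 2 lower without Day 16 replicate 2.

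DNA replication genes were higher on Day 16. Of 36 measured members 24 were higher and 0 lower, with a median of 0.60. Mcm3, a subunit of the replicative helicase, had 9.01 and 9.13 on Day 16, against 7.81 and 7.74 on Day 0 (1.29 ± 0.11, adjusted p = 3.45e-09). Cdc6, which loads that helicase at origins, had 8.98 and 8.78 on Day 16, against 7.54 and 7.52 on Day 0 (1.35 ± 0.11, adjusted p = 5.25e-09; 0.54 as the mean of its probes). Tyms, which makes thymidylate, had 11.16 and 11.05 on Day 16, against 9.61 and 9.42 on Day 0 (1.59 ± 0.08, adjusted p = 3.79e-12; 0.64 as the mean of its probes). Origin and helicase genes were called in 11 of 14 cases (median 0.83), whereas polymerase and clamp genes were called in 6 of 13 (median 0.27). Mcm5, whose promoter is printed above, rose by 0.90, and the sliding clamp Pcna by 0.70, while Mcm6 (0.01), Lig1 (0.10) and Rfc2 (-0.09) were not called.

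Cyclins and mitotic genes were less uniform. Ccne2, cyclin E2, was undetected on Day 0 and at least 5.71-fold higher on Day 16 (adjusted p = 8.32e-14, measured means 7.40 on Day 16 and 4.32 on Day 0), although it differed by 1.85 without background correction, less than that bound. Cdk2, its partner kinase, had 12.35 and 12.26 on Day 16, against 11.21 and 11.15 on Day 0 (1.13 ± 0.08, adjusted p = 2.99e-10; 2.06 as the mean of its probes). Cdk6 (0.91), Cdk4 (0.69; a second probe gave -0.23 and was not called) and Ccnd1 (0.57) rose and Ccnd2 (-0.60) fell. Of the inhibitors of these kinases Cdkn1b rose by 1.00, while Cdkn1c fell by 0.80 and Cdkn1a by 0.31. Of 24 measured mitosis genes 10 were higher and 1 lower, Kif23 (-0.21, not called under 7 of 15 settings), with a median of 0.08. Leaving out Day 0 replicate 1, Day 0 replicate 2 or Day 16 replicate 1 left 0 mitosis genes lower. Ect2, a spindle midzone gene, was undetected on Day 0 and at least 3.41-fold higher on Day 16 (adjusted p = 1.41e-09, measured means 6.65 on Day 16 and 4.69 on Day 0), and differed by 1.13 as the mean of its probes and by 1.02 without background correction. Cdk1, the mitotic kinase, was 0.72 higher on its brightest probe but 0.17 and not called as the mean of its probes (adjusted p = 0.133), with -0.14 and -0.06 on other probes. Top2a (0.96), Birc5 (0.70) and Aurkb (0.68) rose, and Aurka (-0.09), Ccna2 (0.04) and Cdc20 (0.07) were not called.

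Of 52 measured interferon response genes 26 were higher on Day 16, 9 were lower and 17 were not called, with a median of 0.31. With median centring 18 were higher. The GTPases of the guanylate-binding and immunity-related families, which act on vacuoles of pathogens, were higher in 7 of 9 cases and lower in 0 (median 0.70). Gbp3 had 11.14 and 11.17 on Day 16, against 9.44 and 9.46 on Day 0 (1.70 ± 0.10, adjusted p = 2.26e-11). Irgm2 had 10.85 and 10.83 on Day 16, against 9.66 and 9.68 on Day 0 (1.17 ± 0.08, adjusted p = 4.93e-10). Both arrays of a day nearly coincided in these genes.

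Sensors of foreign RNA and antiviral effectors included risers and fallers. Ddx58, the RNA sensor RIG-I, had 10.04 and 10.06 on Day 16, against 8.68 and 8.71 on Day 0 (1.35 ± 0.08, adjusted p = 2.48e-11), while a second probe, undetected on Day 0, gave 0.32 and was not called. The RNA-activated kinase Eif2ak2 rose by 1.36 (± 0.09). Dhx58, which modulates that sensing, fell by 0.40, with -0.24 and 0.03 on other detected probes, neither called. Sting1, the adaptor of DNA sensing, fell by 0.51, but was not called without Day 0 replicate 1, Day 0 replicate 2 or Day 16 replicate 1, nor with no filter. Of 21 measured antiviral effectors 11 were higher, among them Parp12 (1.06), Mx1 (0.92) and Oas2 (0.81), and 3 were lower (Oasl1 -0.77, with -0.68 and 0.29 on other probes, Samhd1 -0.37, Rsad2 -0.22). The ubiquitin-like modifier Isg15 rose by 0.32. Among the signalling genes Irf1 rose by 0.69 and Ifngr2 by 0.75, whereas Irf8 fell by 0.94, Jak1 by 0.86 and the feedback inhibitor Socs3 by 0.45. Irf7, the factor that amplifies type I interferon, did not pass the test (-0.16, adjusted p = 0.304). The number of interferon genes lower on Day 16 was 5 without Day 0 replicate 2 and 5 without Day 16 replicate 1.

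Of 20 measured antigen presentation genes 8 were higher and 3 lower on Day 16, against 20.9% and 26.6% of all genes. Their median was 0.19 (5 higher with median centring). Class I chains were higher in 3 of 5 cases, H2-D1 (0.78), H2-T23 (0.75) and B2m (0.46), while H2-K1 (0.16) and H2-M3 (0.14) were not called. Genes of peptide loading and the immunoproteasome were higher in 5 of 10 cases, among them Psmb8 (1.05 ± 0.09, adjusted p = 3.76e-09; -0.01 on a second probe, not called) and Tapbp (1.13 ± 0.16; -0.44 on a second probe, and 0.35 as the mean, neither called). Class II genes were lower in 3 of 5 cases. H2-Ab1 had 8.14 and 7.97 on Day 16, against 9.62 and 9.73 on Day 0 (-1.62 ± 0.13, adjusted p = 3.72e-09; -1.03 as the mean of its probes), H2-DMa fell by 1.26, and H2-Aa, undetected on Day 16, was at least 2.41-fold lower (adjusted p = 4.16e-08, measured means 4.53 on Day 16 and 6.11 on Day 0), but differed by -0.78 log2 units without background correction, less than that bound. Cd74 (-0.19) was not called, and H2-Eb1 was detected on none of the 4 arrays. Of 7 leukocyte markers 5 had a named probe, and Ptprc, Cd3e and Itgam were detected on no array. Fcer1g was 0.67 higher, but not called without Day 16 replicate 2 (adjusted p = 0.0689). Lyz2 was 0.77 lower, but not called as the mean of its probes (-0.32, adjusted p = 0.0606), with 0.13 on a second probe. The summed signal of Fcer1g and Lyz2 was 72.26 and 87.8 on Day 16, against 85.73 and 80.61 on Day 0, so the days overlapped, and the part of such cells in the result was not tested.

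Secreted inflammatory genes were mixed too. The acute phase gene Saa3 had 10.95 and 10.95 on Day 16, against 9.76 and 9.80 on Day 0 (1.17 ± 0.09, adjusted p = 1.49e-09), and the chemokine Ccl2 had 7.63 and 7.85 on Day 16, against 6.43 and 6.18 on Day 0 (1.44 ± 0.17, adjusted p = 4.34e-07). Csf1 rose by 0.86. The cytokine Il6 was lower (-1.499 ± 0.20; -0.78 without background correction) and the chemokine Cx3cl1 by 0.85. Genes of NF-kB and its feedback were lower in 5 of 7 cases and higher in 0: Nfkbia, the inhibitor that NF-kB itself induces, had 10.14 on both Day 16 arrays, against 11.57 and 11.60 on Day 0 (-1.44 ± 0.10, adjusted p = 2.66e-10), and Rela fell by 0.59, Tnfaip3 by 0.54 (not called without Day 16 replicate 2), Relb by 0.50 and Icam1 by 0.44.

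**Figure D4:**
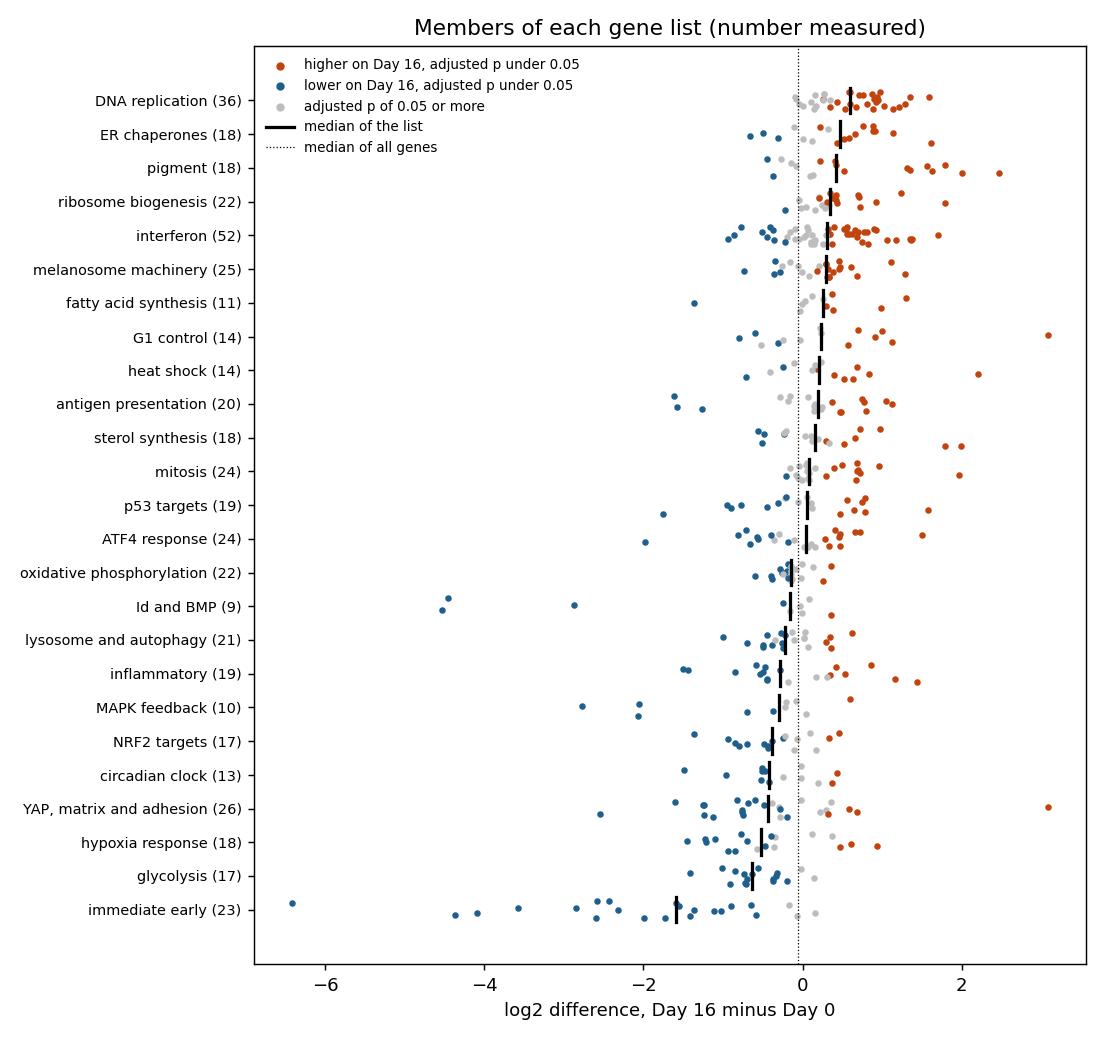
Each point is a member of a gene list, placed by its log2 difference, Day 16 minus Day 0, on the x axis. Orange members were called higher on Day 16, blue members lower and grey members neither, black bars are list medians and the dotted line is the median of all genes (-0.05). Lists run from immediate early genes at the bottom (median -1.59) to DNA replication at the top (0.60).

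Glycolysis genes were lower on Day 16. Of 17 measured members 15 were lower and 0 higher, with a median of -0.64. With the mean of the detected probes of each gene, 11 were lower. Hk1 was lower on its brightest probe (-0.64), while a second probe gave 0.88 and was called higher. Aldoc, an aldolase, had 7.88 and 7.92 on Day 16, against 9.42 and 9.21 on Day 0 (-1.41 ± 0.13, adjusted p = 2.66e-08), and its relative Aldoa had 13.11 and 13.23 on Day 16, against 14.02 and 14.13 on Day 0 (-0.91 ± 0.09, adjusted p = 3.82e-08). The glucose transporter Slc2a1 fell by 0.73, the lactate exporter Slc16a3 by 1.01 (-0.05 on a second probe, not called) and Gapdh by 0.56. Pfkp (0.14) did not pass the test, and Pfkfb3 was detected on 1 array alone. Hypoxia response genes were lower in 10 of 18 cases and higher in 3 (median -0.52). Car9, a carbonic anhydrase induced by low oxygen, had 6.19 and 5.95 on Day 16, against 7.59 and 7.44 on Day 0 (-1.45 ± 0.15, adjusted p = 7.36e-08; -1.17 and -0.39 on other probes), Ndrg1 fell by 1.23 and Egln3 by 1.21. The 3 called higher were P4ha1 (0.93), Kdm3a (0.61) and Ddit4 (0.47), each with a limit. A second P4ha1 probe gave -0.64, and the mean of both was 0.14 and not called (adjusted p = 0.183). Other Kdm3a probes gave -1.14, 0.55 and 0.94, and Ddit4 was not called with median centring. Subunits of oxidative phosphorylation changed by small amounts, 9 of 22 lower and 2 higher (5 lower without Day 0 replicate 2 or Day 16 replicate 2, and 1 higher without Day 0 replicate 2 or Day 16 replicate 1), with Ndufb5 (-0.60) and Cox5b (0.36, not called with median centring) at the ends.

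Stress lists differed in direction, and their counts stand beside 20.9% of all genes higher and 26.6% lower. ER chaperones were higher in 11 of 18 cases and lower in 3 (median 0.48): Calr, a calcium-binding chaperone, had 9.59 and 9.48 on Day 16, against 8.07 and 7.77 on Day 0 (1.62 ± 0.11, adjusted p = 2.26e-10), Hspa5, the main chaperone of the ER, rose by 0.66, and P4hb fell by 0.66. Hsph1, a cytosolic chaperone of the heat shock response, had 10.14 and 10.16 on Day 16, against 7.97 and 7.92 on Day 0 (2.21 ± 0.08, adjusted p = 8.47e-15), while the inducible Hspa1a (-0.11) and Hspa1b (0.12) were not called. NRF2 targets, which handle oxidants, were lower in 10 of 17 cases and higher in 2 (median -0.38; 1 higher without Day 0 replicate 2 or Day 16 replicate 1), with Me1 (-1.37), Gstm1 (-0.94; -0.05 on a second probe, not called), Osgin1 (-0.85) and Txnrd1 (-0.80) lowest and Gclm (0.45, not called with median centring) highest. The ATF4 list split into 9 higher and 8 lower of 24. Its serine synthesis enzyme Phgdh had 8.62 and 8.51 on Day 16, against 7.02 and 7.09 on Day 0 (1.505 ± 0.10, adjusted p = 7.93e-11), while Ppp1r15a, which ends the translation block of this pathway, fell by 1.98. Atf4 itself was 0.71 lower on its brightest probe and -0.33 as the mean of its probes, while a second probe, detected on all 4 arrays, gave 0.06 (adjusted p = 0.606).

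Growth and lipid genes gave further rises. The list counts in this paragraph stand beside 20.9% of all genes higher and 26.6% lower. Ribosome biogenesis genes were higher in 13 of 22 cases and lower in 1, Nop58 (-0.22, not called when any 1 of the 4 arrays was left out), with a median of 0.34. Nop56, a core protein of nucleolar RNA complexes, had 9.65 and 9.50 on Day 16, against 7.68 and 7.90 on Day 0 (1.79 ± 0.09, adjusted p = 1.11e-12), and Myc (0.04) was not called. Among sterol genes 7 of 18 were higher and 4 lower (2 lower without Day 0 replicate 1 or Day 16 replicate 2). Nsdhl (1.98; 1.21 as the mean of its probes, of which 1 gave -0.23) and Cyp51 (1.78), which act on lanosterol-derived sterols, and Fdps (0.97) rose, and Stard4 (-0.51) and Pmvk (-0.49) fell. The desaturases Scd2 (1.31) and Fads2 (0.98; -0.06 on a second probe, not called) rose. Targets of p53 were even, 7 higher and 7 lower of 19, between Plk2 (-1.75) and Ckap2 (1.58), with Mdm2 at 0.56 (-0.09 and 0.16 on other probes, neither called). In the clock, Per1, a period gene that also responds to acute stimuli, had 8.18 and 8.25 on Day 16, against 9.71 and 9.70 on Day 0 (-1.49 ± 0.09, adjusted p = 7.13e-11). Nr1d1 fell by 0.97 and Dbp by 0.51, Clock was 0.43 higher (not called with median centring) and Arntl 0.36 (not called with median centring or without any 1 of the 4 arrays), and the clock list had 7 lower and 2 higher of 13 (1 higher without any 1 of the 4 arrays). Lysosome and autophagy genes were lower in 10 of 21 cases and higher in 4 (6 lower without Day 0 replicate 2), with Map1lc3a (-1.003; -0.21 on a second probe, not called) lowest and Sqstm1 (0.62) highest.

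Other large rises lay outside the gene lists. Zbtb2, a zinc finger transcription factor, had 11.48 and 11.54 on Day 16, against 7.67 and 7.63 on Day 0 (3.86 ± 0.07, adjusted p = 1.38e-19). Gulp1, an adaptor of engulfment, had 9.13 and 9.19 on Day 16, against 5.65 and 5.73 on Day 0 (3.48 ± 0.11, adjusted p = 7.06e-16), and 1.00 on a second probe. Prf1, the gene of perforin, a pore protein of cytotoxic lymphocytes, had 12.25 and 12.38 on Day 16, against 9.42 and 9.26 on Day 0 (2.98 ± 0.09, adjusted p = 3.20e-16); the leukocyte markers are given above, and their part in this rise was not tested. These 3 rises were far larger than the spread of either day, but those of Zbtb2 and Prf1 rest on 1 detected probe each.

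Chromatin and RNA genes were also among the 15 largest rises. Rbbp7, a histone-binding protein, rose by 2.80 (± 0.12), and by 2.60 and 2.62 on other probes, but 0.04 on another. Atad2 rose by 2.28 and by 0.40 on a second probe that did not pass the test (adjusted p = 0.0983), and Ppfibp1 by 2.33 and 1.59. The helicase Ddx5 (2.24) and the splicing factor Tra2b (2.14) had 1 detected probe each. ND4L, which mitochondrial DNA encodes for complex I, rose by 2.84 and Mcoln3, a cation channel of endosomes and lysosomes, by 2.12, also on 1 detected probe each. Vmn1r181, annotated as a vomeronasal receptor, was undetected on Day 0 and at least 3.56-fold higher on Day 16 (adjusted p = 4.51e-10, measured means 6.71 on Day 16 and 4.49 on Day 0), but differed by 1.18 without background correction. Among the falls outside the lists, Myom1 differed by -2.68 and by -0.90 on a second probe, and Ccno, cyclin O, by -2.57.

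Day 16 followed the Day 12 harvest and preceded Day 20, which is labelled depigmented as well, so the same genes were read against both in the same fit. Day 16 differed from Day 12 in 4635 genes (40.4%), 20.7% being higher and 19.7% lower on Day 16. Day 20 differed from Day 16 in 7453 (65%), 29.9% being higher and 35% lower on Day 20. These comparisons share the Day 16 arrays with the comparison to Day 0. Of the 15 largest falls, 9 did not differ between Day 16 and Day 12, a share near that of all genes, of which 40.4% differed. On Day 20, 11 of these falls were higher than on Day 16, as were 29.9% of all genes. Of the 15 largest rises, 7 did not differ between Day 16 and Day 12. On Day 20, 9 of these rises were lower than on Day 16, as were 35% of all genes. Mean log2 signals of Fos were 13.16, 9.69, 9.69, 8.67, 8.79 and 11.24 over Days 0, 4, 8, 12, 16 and 20. Fosb was 4.66 log2 units and Egr1 2.55 units higher on Day 20 than on Day 16, whereas Id3 (-0.23) and Egr3 (-0.10) were not called between those days. Id2 had means of 11.65, 11.82, 11.80, 8.06, 7.19 and 11.75 over Days 0, 4, 8, 12, 16 and 20, so it was low at Days 12 and 16 alone.

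Pigment genes of Day 16 were then read against both neighbours. Tyr did not differ between Day 16 and Day 12 (-0.23, adjusted p = 0.116) and was 2.77 log2 units lower on Day 20 than on Day 16 (adjusted p = 4.19e-15). Pmel was lower on Day 20 than on Day 16 (-4.39), as were Mlana (-3.24) and Gpr143 (-3.14), and 13 of 18 pigment genes were lower on Day 20, against 35% of all genes. Mitf was higher on Day 16 than on Day 12, by 1.71 on its brightest probe (adjusted p = 3.78e-10), while Trpm1 was lower (-3.58). The second Mitf probe was not read against Day 12. Interferon genes were higher on Day 16 than on Day 12 in 40 of 52 cases and lower in 3 (median 1.49), against 20.7% and 19.7% of all genes, with Oas2 at 3.74, Gbp3 at 3.67 and Isg15 at 2.98. DNA replication genes were higher on Day 16 than on Day 12 in 32 of 36 cases and lower on Day 20 than on Day 16 in 36 of 36 (median -2.70), against 20.7% and 35% of all genes. Targets of p53 and of NRF2 went the other way against Day 12, with 17 of 19 and 11 of 17 lower on Day 16, against 19.7% of all genes. Zbtb2 was 2.66 higher on Day 20 than on Day 16 and did not differ between Day 16 and Day 12 (-0.08, adjusted p = 0.421).

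**Figure D5:**
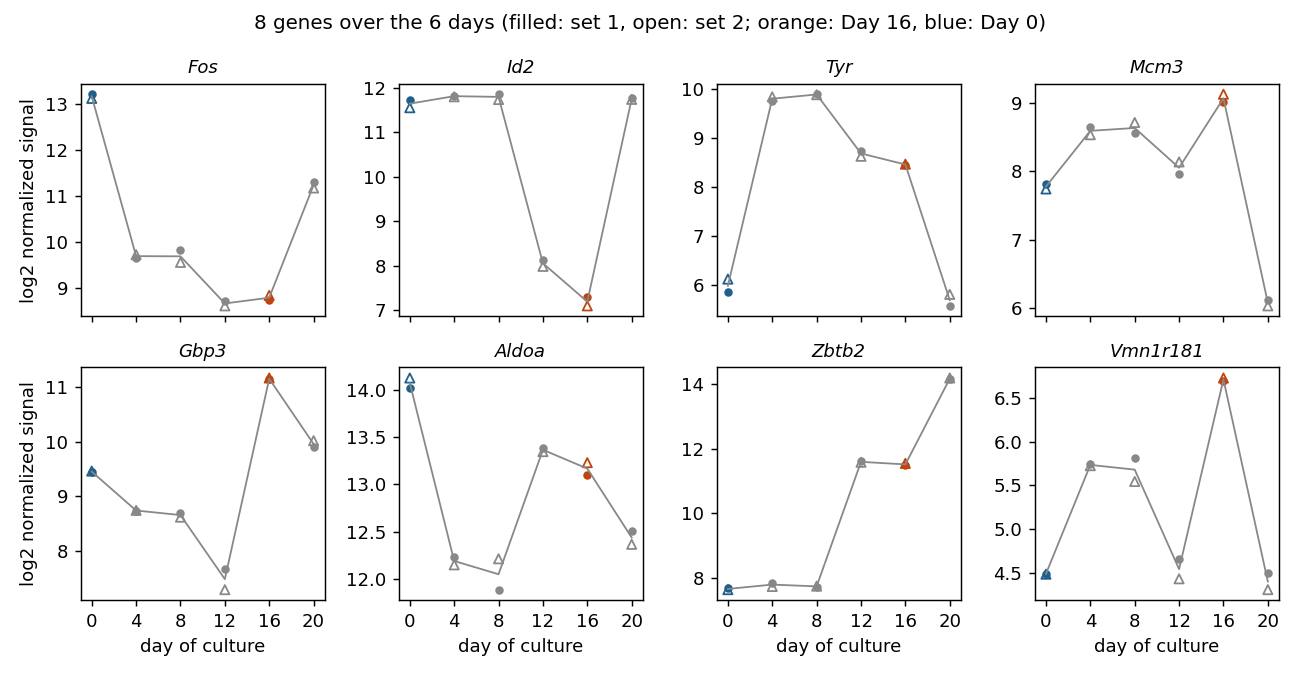
The x axis is the day of culture and the y axis the log2 normalized signal, with set 1 filled and set 2 open, the line through the daily means, Day 16 in orange and Day 0 in blue. Fos and Id2 are low on Day 16, Tyr lies near its Day 12 level (8.69), Mcm3, Gbp3 and Vmn1r181 are at their highest on Day 16, Aldoa is below its Day 0 level, and Zbtb2 is high from Day 12 on.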

How the data were processed

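Total RNA of B16 cells was hybridised to 12 Illumina bead arrays, 2 for each of 6 days. The deposited signal table gives a linear intensity per probe and a detection p-value, per the file headers; the software behind it is not given in the sources used here. The authors' deposited value table holds straight-line transforms of those intensities. Signals were background corrected and quantile normalized with neqc (limma 3.58.1, R 4.3.3; background from the detection p-values, offset 16), and log2 values were taken. The filter kept 22978 probes, those with a detection p under 0.05 on 2 or more of 12 arrays. Genes were named through the platform annotation (34885 probes with 1 symbol, 18 with several, 10378 with none; 34807 listed in RefSeq, 0 updated), and each was read from its probe with the highest mean.

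Day was a factor of 6 levels over 12 arrays in lmFit and eBayes with an intensity trend, without a block. Tests are two-sided. Set numbers mark a shared cycle in the design text; deviations of same-numbered arrays of Day 0 and Day 16 correlated at 0.112. Where a probe was undetected on both arrays of a day, "at least" gives the mean of the other day over the higher, per array, of the lowest detected value and the probe's own; such bounds hold under this background correction only. Named genes are the 15 largest rises and falls with non-overlapping arrays and, per list, up to 5 called members in each direction plus other members with their values. Lists (31, with 629 entries, of which 71 did not pass the filter and 39 were not analysed here) and the comparison were chosen with earlier results of these data known. The fit was tested on simulated data. Precision is limited by the number of arrays, 2 a day.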

Additional observations from a re-analysis of the deposited data

Results flagged for a closer look

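Tfeb, a transcription factor of lysosomal genes, was called lower on Day 16 (-0.50, adjusted p = 0.0491), but its 2 sets went opposite ways. The difference, Day 16 minus Day 0, was 0.03 in set 1 and -1.03 in set 2. With 1 array of a set per day, the difference between the sets was not tested. Tfeb was not called under 12 of the 14 alternative settings that measured it.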

How the results depend on the processing

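Of 207 genes followed through 15 alternative settings, 160 were called in every setting that measured them and none changed sign. All 207 had been called in the main fit and picked for large differences, among all genes or within a list. Most settings refit the same arrays, so kept calls and signs were largely set by that choice. The stability of the other called genes cannot be read from these 207. The count of 5455 genes called ranged from 3988 (median centring) to 5780 (the 4 arrays alone), and with set as a replicate block it was 5722 and changed none of the 207 calls; with the value table's set numbers, exchanged for Days 4, 12 and 20 and added after seeing the data, the replicate block gave 5349. Leaving out 1 array of Day 16 or Day 0 gave 4364 to 4545 called genes and 782 to 814 of at least 2-fold. The density label as a covariate gave 5012. Median centring gave 1381 genes higher, against 2400, and moved the median of all genes from -0.05 to -0.11 and the share of calls that were higher from 44% to 34.6%. Counts of at least 2-fold depended on background: 333 (175 higher and 158 lower) without correction and 415 (221 and 194) from the value table. Restricting the fit to probes that every array detected left 8325 genes tested, against 11470. Of these, 220 were at least 2-fold lower, against 369, and 328 at least 2-fold higher, against 391, so more falls than rises were lost. Immediate early genes were lower in 13 of 15 measured cases. This setting leaves out any probe that was undetected on an array of Day 16 or of another day. The other leading list counts stayed within 1.5 times under each setting. Weak signals limit sizes: for undetected probes only bounds hold.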

Other observations

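Of the 22978 detected probes, 3858 had no gene symbol. On Day 16, 660 of these were higher and 764 lower than on Day 0 (36.9% called, against 44.8% of named probes), and 152 were at least 2-fold higher and 103 at least 2-fold lower.

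Single members of small lists also differed. Axin2, a feedback gene of WNT signalling, rose by 0.41 on Day 16 (adjusted p = 0.00889), and Txnip, a glucose-responsive arrestin, did not pass the test (-0.03), with 11.69 and 11.67 on Day 16, against 11.73 and 11.70 on Day 0. Axin2 was not called without Day 0 replicate 2 or Day 16 replicate 2. Krt1 of keratinocytes (-0.13) and Vwf of endothelium (-0.26) were not called.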
